A study of Mus musculus with 620 samples.

Results

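The subunits of the receptors through which brain cells sense glutamate and GABA were followed at the RNA level in mouse frontal cortex, hippocampus and hypothalamus. The set holds every gene whose symbol marks it as an AMPA (Gria), NMDA (Grin), kainate (Grik) or delta (Grid) receptor subunit, a metabotropic glutamate receptor (Grm) or a GABA-A receptor subunit (Gabr), with antisense and pseudogene names left out. It came to 45 genes of 40840 in the tables of the ST and YA cohorts and 43 of 24850 in that of the LT cohort, where Gabra6 and Gabrr3 were not among the rows. By family these were 4 AMPA, 7 NMDA, 5 kainate and 2 delta subunits, 8 metabotropic glutamate receptors and 19 GABA-A subunits. One antisense row next to the obligate NMDA subunit gene was left out.

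The libraries were bulk poly(A) RNA-seq, 182 from brain out of 620, from 71 of 72 mice, and each library came from 1 region of 1 animal. The LT cohort (25 mice, 74 brain libraries) held 8 young controls, 9 aged controls (8 of them with frontal cortex) and 8 aged mice given exenatide, an agonist of the GLP-1 receptor, in RNA-seq batches 1 and 3. The ST cohort (30 mice, 60 libraries, batch 5) held 5 mice each of young controls, aged controls, aged mice on exenatide, aged mice on rapamycin (an inhibitor of mTOR), aged controls with knockdown of the GLP-1 receptor in the hypothalamus, and aged knockdown mice on exenatide. ST mice gave frontal cortex and hippocampus only, so the targeted gene was not measured at the site of its knockdown; away from it, Glp1r stood at 0.0819, 0.217, 0.395, 0.492 and 0.791 CPM (counts per M library counts) in frontal cortex with knockdown and at 0.422, 0.423, 0.449, 0.566 and 2.66 in aged controls, was not called, and checks nothing there. The YA cohort (16 mice, 48 libraries, batch 4) held 8 controls and 8 mice on exenatide, each with all 3 regions. The series does not spell out LT, ST and YA, and strain, sex, ages in months, doses, treatment lengths, what the controls received and the knockdown construct are not given in the sources used here; Y and A in the LT and ST group names are read as young and aged. Cohort and batch cannot be told apart, so conditions were compared only within a cohort.

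Glutamate is the main excitatory transmitter of the brain and GABA the main inhibitory one. AMPA, NMDA and kainate receptors are cation channels built of subunits, where Grin1 is obligate in NMDA receptors and the Grin2 subunits tune how fast and at what voltage the channel conducts; metabotropic receptors signal through G proteins instead. GABA-A receptors are chloride channels, most often assembled from alpha, beta and gamma subunits at synapses, with the delta, alpha4 and alpha5 subunits found mainly outside them. Which subunits a neuron makes differs by region and cell type, and some members, such as Grm3 and Gabrg1, are also made by astrocytes.

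The stretches of genome printed next show the starts of the genes on which the condition results below turn most: Grin2c, called with age and exenatide in the hypothalamus; Grm3, called most often; and Gabra4 and Gabrb1, neighbours on chromosome 5. Each line gives the 250 bases before the RefSeq start on GRCm38.p6, read 5′ to 3′ on the gene's strand, with matches to the SP1 box GGGCGG or its reverse complement in capitals. RefSeq promoters matched 30 of the 45 members.
Grin2c, chr11:115267244-115267493, minus strand: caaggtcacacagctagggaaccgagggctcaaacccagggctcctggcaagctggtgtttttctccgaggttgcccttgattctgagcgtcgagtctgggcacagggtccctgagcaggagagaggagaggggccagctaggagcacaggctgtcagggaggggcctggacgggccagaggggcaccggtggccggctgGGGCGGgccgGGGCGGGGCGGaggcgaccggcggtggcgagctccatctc
Grm3, chr5:9725353-9725602, minus strand: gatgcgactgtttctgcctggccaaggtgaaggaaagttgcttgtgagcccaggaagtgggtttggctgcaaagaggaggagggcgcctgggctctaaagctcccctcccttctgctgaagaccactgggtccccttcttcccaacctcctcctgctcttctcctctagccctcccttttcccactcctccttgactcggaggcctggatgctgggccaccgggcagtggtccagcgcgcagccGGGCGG
Gabra4, chr5:71658309-71658558, minus strand: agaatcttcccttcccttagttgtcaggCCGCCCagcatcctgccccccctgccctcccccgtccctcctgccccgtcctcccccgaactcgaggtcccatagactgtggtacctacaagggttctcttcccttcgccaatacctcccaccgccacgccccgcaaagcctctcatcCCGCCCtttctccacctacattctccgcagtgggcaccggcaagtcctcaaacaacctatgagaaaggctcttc
Gabrb1, chr5:71657671-71657920, plus strand: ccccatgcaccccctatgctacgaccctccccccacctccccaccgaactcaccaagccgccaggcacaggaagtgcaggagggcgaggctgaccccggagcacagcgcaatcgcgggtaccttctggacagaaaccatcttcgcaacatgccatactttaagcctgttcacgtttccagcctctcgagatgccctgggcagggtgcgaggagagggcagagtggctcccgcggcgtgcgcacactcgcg
Grin2c held 3 such boxes in this window, all within 50 bases of its start, Gabra4 held 2, Grm3 held 1 and this Gabrb1 start none. Of all 32851 RefSeq promoter windows of this length, 32.7% held at least 1, so a box is no mark of the set. The median GC content of the members' 37 windows was 58.8%, against 52.4% over all. The Gabrb1 start at 71657921 lies 387 bases inside Gabra4, which starts at 71658308 on the other strand, and the library kit does not mark strand, so reads over that overlap cannot be assigned to 1 of the pair. Chromosome 5 also carries Gabra2 and Gabrg1 in the same cluster.

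Brain library totals ran from 22.7 to 56.2 M counts, with a median of 26.3 M. Regions carried their own markers. The summed level of 13 hypothalamus markers was 1120 to 4030 CPM in hypothalamus libraries and at most 104 in the others. The frontal cortex and hippocampus marker sums were likewise above those of the other regions in each cohort. Frontal cortex libraries held striatum marker sums of 1598 to 2834 CPM in YA, 1689 to 3965 in LT and 770 to 1983 in ST. Those sums were at most 289 in hippocampus and 450 in hypothalamus. The part of striatum in the cortex levels and region contrasts was not tested. In the YA hippocampus, animals A87 (control) and A88 (exenatide) stood apart, with astrocyte marker sums of 5186 and 5571 CPM against 2647 to 3344 in the other 14, and interneuron marker sums of 440 and 256 against 871 to 1596. Hippocampus libraries of the other cohorts were like these 2 animals and unlike the 14: astrocyte sums were 4327 to 8342 in LT and 5173 to 7413 in ST, and interneuron sums 301 to 717 and 247 to 574. ST hippocampus totals differed by group, at 22.7 to 26.4 M in aged controls and 30.1 to 56.2 M with exenatide.

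Levels in the YA controls, the cohort with all 3 regions from every mouse and 1 batch, are given as CPM per kilobase of exon so that genes can be compared, with regions scaled together and n = 8. Summed over members, GABA-A subunits came to 337 in frontal cortex, 250.1 in hippocampus and 210.2 in hypothalamus, and NMDA subunits to 184, 291 and 135. AMPA subunits came to 170.1, 194 and 96, kainate subunits to 134, 279 and 102, metabotropic receptors to 92.7, 53.7 and 51.9, and delta subunits to 18.4, 10.7 and 19.6. These orders did not all hold in the other cohorts. In LT young controls (n = 8) GABA-A subunits came to 396, 434 and 422, and kainate subunits to 144 in cortex and 115 in hippocampus, where YA had more in hippocampus. Hippocampal AMPA subunits came to 344 in LT and 361 in ST young controls (n = 5), against 194 in YA. Cohorts also differ in batch and in kind of count, whole-number in LT and estimated in ST and YA. Their levels were not tested against each other. Single genes carried most of several sums: Grin1 alone stood at 134 in cortex and 233 in hippocampus, and Grik5, a kainate subunit that conducts only in partnership with others, at 108 and 254. Grin3b, the other extreme of the NMDA family, stood at 0.235 and 0.245.

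In YA controls the leading members of each family changed with region. Among AMPA subunits Gria1 led in every region, at 73.7 ± 2.5 (SD) in cortex. Gria3 at 43.1 ± 2.5 and Gria2 at 41.6 ± 4.4 followed there and did not differ beyond their spread. Gria2 is the subunit that keeps AMPA channels closed to calcium. The cortex log2 ratio of Gria1 to Gria2 counts, not scaled by length, averaged −0.03 in YA controls. It averaged −0.76 in LT and −1.01 in ST young controls, so the AMPA order need not hold there. Behind Grin1, Grin2c and Grin2b came next in cortex (16.8 ± 1.1 and 15.2 ± 2.0), Grin2c and Grin2a in hippocampus, and Grin2d and Grin2c in hypothalamus. These ranks depend on the length used, the union of a gene's annotated exons. It was 24787 bases for Grin2b and 14967 for Grin2a, against 5037 for Grin2c. Behind Grik5, Grik3 came next in cortex (13.8) and hypothalamus (7.89), and Grik4 in hippocampus (15.7). Of the metabotropic receptors Grm5 led in cortex (23.5 ± 3.1), with Grm3 within its spread (20.7 ± 2.6). Grm2 led in hippocampus (14) and Grm7 in hypothalamus (10.9). In the hippocampus of A87 alone Grm5 led, at 23.7 against 19.2 each for Grm2 and Grm3. Of the GABA-A subunits Gabrb2 and Gabrd stood at 52.5 and 45.9 in cortex, Gabra5 and Gabrd at 47.4 and 33.6 in hippocampus, and Gabra3 at 23.7 in hypothalamus.

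**Figure D1:**
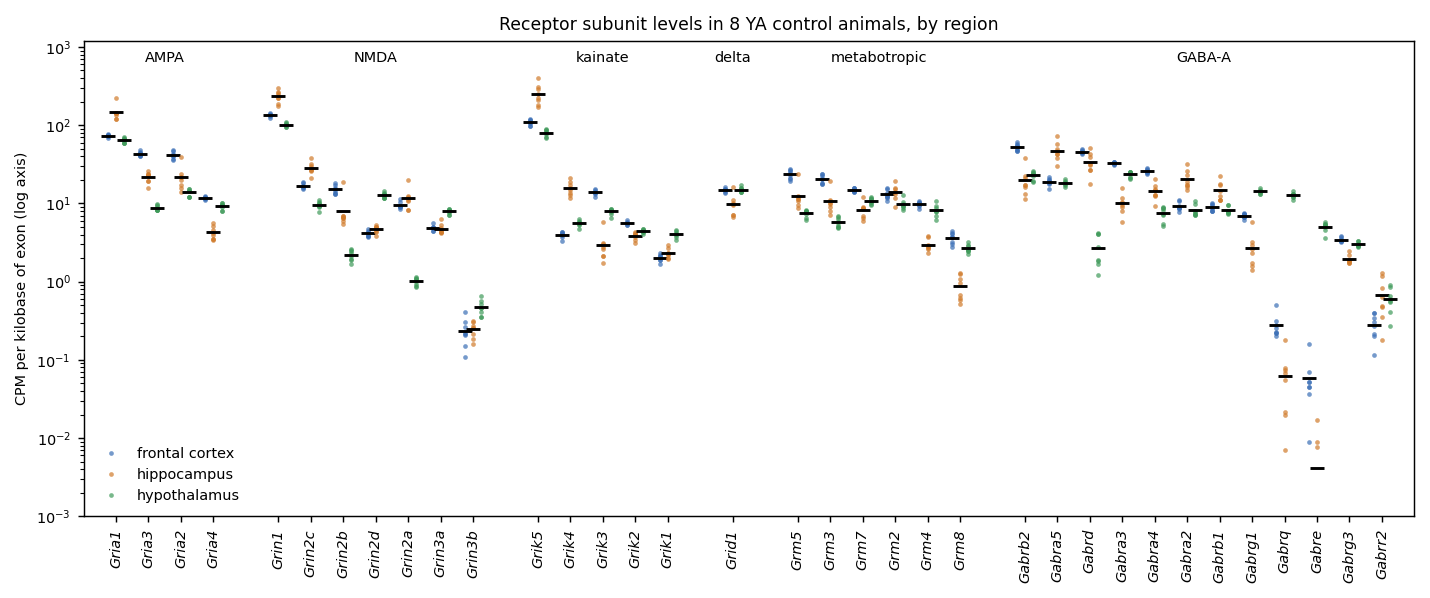
Level of receptor subunits in the YA control mice by brain region, as CPM per kilobase of exon on a log axis; points are animals (n = 8 per region) and libraries at 0 are left out. The Gabre and Gabrq points of the hypothalamus sit far above those of the other regions, and the Gabrd and Grin2a points far below.

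The members differed in where they were made. The AMPA subunit Gria1 had a lowest, median and highest value of 121, 142 and 220.3 CPM per kb in YA hippocampus against 69.4, 74 and 77.2 in frontal cortex, so the regions did not overlap. Gabra5, an alpha subunit that gives largely extrasynaptic receptors, ran from 30.2 to 72.3 in hippocampus and 15.5 to 21.5 in cortex. Gabrd, the delta subunit of tonic inhibition, ran from 42.4 to 49.6 in cortex, 17.6 to 51.3 in hippocampus and 1.22 to 4.22 in hypothalamus. Grin2a, the NMDA subunit of mature forebrain synapses, ran from 8.58 to 11.4 in cortex, 8.2 to 20.2 in hippocampus and 0.848 to 1.14 in hypothalamus. Animal A87 gave the highest hippocampal values of Gria1, Gabra5 and Grin2a and the lowest of Gabrd. Gabrq and Gabre, the theta and epsilon subunits found in hypothalamic and monoaminergic neurons, ran the other way: Gabrq at 11.1 to 14.5 in hypothalamus against at most 0.505 elsewhere, and Gabre at 3.63 to 5.75 against at most 0.162.

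These region differences were tested within animals in each cohort's controls, young controls in LT and ST. In YA, 11 members were higher and 24 lower in hippocampus than in frontal cortex of 40 tested, where 74.4% of all genes were called; 9 were higher and 23 lower in hypothalamus than in cortex (65.7% of all genes), and 20 higher and 18 lower in hypothalamus than in hippocampus (67.8%). LT young controls gave 10 and 14 (36.9%), 17 and 12 (62.9%), and 17 and 17 of 40 (58.9%) for the same contrasts, and ST young controls 10 and 20 of 39 (62.6%) for hippocampus against cortex. In each of these 7 contrasts a larger share of members (60% to 95%) than of all genes was called; no test of that excess was made.

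Because the cohorts share no animals, the same contrast could be set side by side. Single contrasts called 36.9% to 74.4% of all genes, so some agreement would arise for any set of genes. For none of the contrasts was the share of all genes called alike or oppositely computed. The counts here and for the hypothalamus are therefore not read as particular to the members. Hippocampus against cortex, called in the same direction in all 3 cohorts, gave 4 higher members of the 39 tested in each: Gria1 (log2 fold change 0.97 in YA, 1.33 in LT, 1.36 in ST), Gabra5 (1.31, 2.28, 1.49), Grik4 (1.97, 1.31, 1.44) and Gabra2. Another 10 were lower in each, among them the GABA-A subunits Gabra3, Gabrd, Gabrg1 and Gabrg3, the AMPA subunit Gria4, the kainate subunit Grik3 and the metabotropic receptors Grm3, Grm4 and Grm8. For 5 members, among them Gria2, Grik5, Grin2b and Grin2c, called directions differed between cohorts. Grik5, for example, was higher in hippocampus in YA, with medians of 236 against 107 CPM per kb, and lower in LT young controls, with 90.3 against 112. The YA hippocampus libraries are also those whose astrocyte and interneuron marker sums differed from the other cohorts; the part of this in the opposite directions was not tested.

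Hypothalamus against cortex, called alike in YA and LT, gave 8 higher members of 40 (Gabre, Gabrq, Gabrg1, Gabrr2, Grin2d, Grin3a, Grik1 and Grik4) and 12 lower (Gria2, Gria3, Grin1, Grin2a, Grin2b, Grin2c, Grik5, Grm3, Grm4, Grm5, Gabra4 and Gabrd). Gabrd had log2 fold changes of −4.18 ± 0.20 (SE) in YA and −6.41 ± 0.19 in LT, Gabrq of 5.56 and 6.10, and Grin2a of −3.22 and −2.29. Grin2d, an NMDA subunit of slow channels common in deep brain regions, ran from 11.6 to 14.2 CPM per kb in YA hypothalamus against 3.76 to 4.67 in cortex. Hypothalamus against hippocampus gave 16 higher and 17 lower in both cohorts and no member with opposite calls. Leaving out animal A87 moved 1 member's log2 fold change by over 0.3, that of Gabrq, which kept its direction.

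Age was compared in the LT cohort in each region, aged against young controls, with the batch in the model; for each comparison below, "called" means a Benjamini-Hochberg adjusted p under 0.05 over all genes tested. In frontal cortex 2 of 40 members fell and none rose (2.8% of all genes fell, 2.94% rose): the kainate subunit Grik5 and the NMDA core subunit Grin1. Grik5 had a lowest, median and highest value of 389, 421 and 464 CPM in young mice and 294, 312 and 387 in aged ones, so the groups did not overlap (log2 fold change −0.37 ± 0.08, adjusted p = 0.00842). Within batches it was −0.34 in batch 1 and −0.40 in batch 3, the latter not called. Grin1 stood at 567, 612 and 676 against 463, 527 and 591, with a small overlap (−0.24 ± 0.06, adjusted p = 0.022). The Grin1 call was lost without the batch term and with length and GC trends removed, and its count of 2 fell to 1 when any of 4 animals (B15, B24, A53 or A54) was left out. In hippocampus no member of 39 was called by edgeR or DESeq2 (0.403% of all genes by edgeR), with 2 under an unadjusted p of 0.05.

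In the LT hypothalamus 1 member of 40 rose and 1 fell with age, against 3.12% and 3.97% of all genes. Grin2c, the NMDA subunit best known from cerebellar granule cells and astrocytes, ran at 22, 38.1 and 44.9 CPM in young controls (lowest, median, highest) and 39.9, 56.3 and 68 in aged controls. The aged animals were mostly above the young ones, with an overlap at the edge, and the log2 fold change was 0.69 ± 0.09 with an adjusted p of 3.77e-05. None of the 17 young and aged control animals ended this call when left out; with length and GC trends removed the log2 fold change was 0.46, still called, it was 0.71 in batch 1 alone and, with 3 young and 4 aged mice, 0.69 in batch 3 alone, the latter with an adjusted p of 0.22. The count of 2 over members became 10 without animal A54, 8 without A58 and 1 without any of 12 others. In the same comparison 5 of 10 oligodendrocyte markers fell and 4 of 9 microglia markers rose, with sums of 5477 to 9335 CPM in aged and 6051 to 9695 in young for the former and 298 to 511 against 254 to 321 for the latter, and no marker was at 0; their part in the result was not tested. In bulk tissue, fewer cells of a type and less RNA per cell cannot be told apart.

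Exenatide in aged LT mice lowered 4 of 40 hypothalamic members and raised none (2.93% of all genes fell, 3.27% rose): Grin2c, the slow NMDA subunit Grin2d, the delta receptor Grid1, which organises synapses, and the high-affinity kainate subunit Grik4. Grin2c stood at 28.8, 37.8 and 48.6 CPM on exenatide, against the 39.9, 56.3 and 68 of aged controls, so its median was next to that of young mice (−0.59 ± 0.09, adjusted p = 0.00437). Both contrasts share the aged controls. Grid1 stood at 71.5, 84.7 and 110.4 against 102, 106 and 116 (−0.29 ± 0.07, adjusted p = 0.0326). Grik4 differed by −0.28 ± 0.09 and Grin2d by −0.49 ± 0.15 (adjusted p = 0.0467 for each), with overlapping groups. Without the batch term the 4 log2 fold changes ran from −0.56 to −0.28 and none was called, with adjusted p from 0.052 to 0.13, and 11 of the 17 aged animals each brought the count to 1 or 2 when left out. Only Grin2c remained called of the 4 with length and GC trends removed (−0.34, adjusted p = 0.0331) and with the choroid plexus level as a covariate (−0.61, adjusted p = 0.0042). All 4 were called in batch 1 alone and none in batch 3 alone, where Grin2c stood at −0.57 (adjusted p = 0.378).

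**Figure D2:**
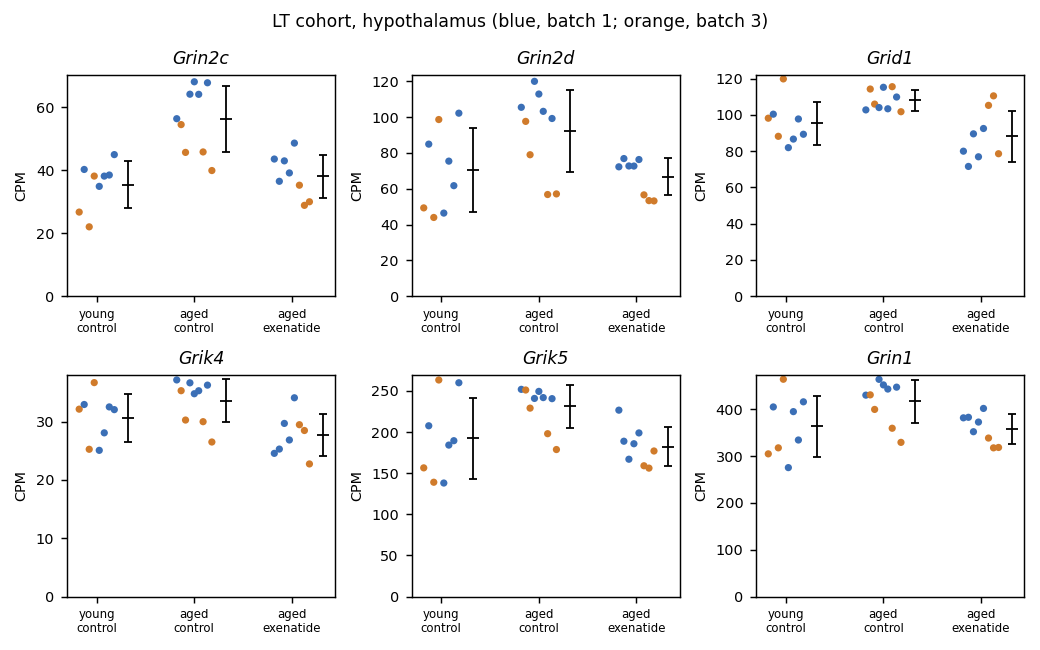
Grin2c, Grin2d, Grid1, Grik4, Grik5 and Grin1 in the LT hypothalamus, in CPM by group; points are animals, in blue for batch 1 and orange for batch 3, and bars are means with SD. Grin2c sits at 22 to 44.9 CPM in young controls, 39.9 to 68 in aged controls and 28.8 to 48.6 in aged mice on exenatide.

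In LT frontal cortex exenatide called none of 40 members by edgeR or DESeq2 (0.0961% of all genes by edgeR), with 3 under an unadjusted p of 0.05. The nearest was Gabra2, at 39.7, 57.7 and 69.7 CPM on exenatide and 47.4, 74.2 and 86.9 in aged controls (−0.36 ± 0.11, adjusted p = 0.154). Batch 1 alone called 7 members (1 rose and 6 fell), where 8.07% of all genes rose and 6.74% fell, and batch 3 alone 5 (4 rose and 1 fell), where 1.75% rose and 2.81% fell. In LT hippocampus none of 39 was called (0.0% of all genes), 2 under an unadjusted p of 0.05 and none by DESeq2.

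Whether age acted differently between LT regions was tested directly. The age difference was more positive in hypothalamus than in frontal cortex for 5 of 40 members and more negative for 1, against 4.24% and 5.36% of all genes. Grin2c differed by 0.78 ± 0.14 (adjusted p = 0.00618), Grik5 by 0.72 ± 0.17 and Grin1 by 0.50 ± 0.13. Grid1 differed by 0.24 ± 0.07 and Grin2d by 0.93 ± 0.28 (adjusted p = 0.0353 and 0.0371). Grik5 and Grin1 are the members that fell with age in cortex and were not called in hypothalamus. Without single animals this count ran from 2 to 11. Hippocampus against cortex gave none (0.0% of all genes, 2 members under an unadjusted p of 0.05), and hypothalamus against hippocampus none (0.504%, 16 under an unadjusted p of 0.05), though 13 without animal A58. For these differences between regions DESeq2 was not run, and length and GC trends were not removed.

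The ST cohort repeated the age contrast in other mice. In its frontal cortex 2 of 39 members rose with age (4.3% of all genes) and none fell (1.26%): Grm3, a metabotropic receptor that lowers cyclic AMP in neurons and astrocytes, and Gabrb1, a GABA-A beta subunit. Grm3 stood at 68.6, 71.6, 73.9, 76.1 and 80.8 CPM in the young and 85.9, 96.2, 103, 109 and 114 in the aged controls. The groups did not overlap (0.46 ± 0.10, adjusted p = 0.00385). Gabrb1 stood at 169.7, 173, 195, 195 and 227 against 229.9, 248, 272, 304 and 319.7, also without overlap (0.52 ± 0.14, adjusted p = 0.0258). With length and GC trends removed the Gabrb1 log2 fold change was 0.21, still called, and 4 members were called in place of 2. Grm3 had age differences of −0.06, −0.03 and −0.20 in LT frontal cortex, hippocampus and hypothalamus, none called.

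In the ST hippocampus 8 of 39 members rose with age and none fell, where 11.9% of all genes rose and 14.1% fell. The members' median log2 difference was 0.16, against 0.00 over all genes. Of the 8, 5 were GABA-A subunits, among them Gabra4 and Gabrg1. The other 3 were Grm3, Grm5, which couples to calcium release and is enriched at excitatory synapses, and the kainate subunit Grik2. Grm3 stood at 33, 35.6, 36.7, 36.9 and 37.3 CPM in young and 45.2, 46.5, 50.03, 50.2 and 50.7 in aged controls (0.43 ± 0.09, adjusted p = 0.00039). Gabra4 stood at 87.8, 95.4, 103, 103 and 106 against 113, 115, 117, 121 and 177 (0.38 ± 0.09, adjusted p = 0.00159). In both genes every aged animal was above every young one, and the highest aged value of Gabra4 came from E29, 1 of the 5 aged controls.

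Without E29 the count was 4, and with length and GC trends removed 5 members were called, of which 2 fell; Grm3 (0.40) and Gabra4 (0.23) kept their calls and the other 6 of the 8 did not. All 8 choroid plexus markers fell, from a young range of 71.6 to 12001 CPM (summed) to 54.5 to 405, 6 of 14 pan-neuronal markers fell (sums of 8485 to 9763 against 7948 to 8626), and 3 of 8 interneuron markers fell (449.9 to 505 against 322 to 436), with none of these markers at 0. With the choroid plexus level as a covariate the count was 4. The part of the other markers was not tested.

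Exenatide gave the largest count in ST aged mice without knockdown: in the hippocampus 14 of 39 members fell and 1 rose, where 14.4% of all genes fell and 14.2% rose. The members' median was −0.17, against 0.01 over all genes. By family, 7 GABA-A subunits (among them Gabra2, Gabra4, Gabrb2 and Gabrg1) and 5 metabotropic receptors (among them Grm2, Grm3 and Grm4) fell, with 1 NMDA subunit, Grin2a, and 1 AMPA subunit, Gria3. Gabrg1 stood at 20.7, 20.9, 21.2, 21.3 and 21.9 CPM on exenatide and 23.9, 27, 28.5, 29 and 34.5 in aged controls, with no overlap (−0.43 ± 0.08, adjusted p = 8.77e-05). Grm3 stood at 33.7, 36.7, 37, 39.1 and 42.4, below every aged control (−0.36 ± 0.09, adjusted p = 0.00203). Grin2a stood at 308, 330.5, 342, 354 and 365 against 371, 406, 420.4, 429 and 474 (−0.31, adjusted p = 0.00449). The riser was Gabrr2, a rho subunit at low level: 1.1, 1.22, 1.32, 1.42 and 1.52 CPM against 0.479, 0.678, 0.82, 0.866 and 1.3, with 1 aged control inside the exenatide range (0.66 ± 0.24, adjusted p = 0.0384).

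With length and GC trends removed, 7 of these 15 kept their calls, among them Gabra4, Grin2a, Grm2, Grm3 and Grm4; Gria3 turned to 0.01. Thinning all ST hippocampus libraries to the smallest ended the calls of Gria3 and Grm4 among these 15. The age and exenatide contrasts share the aged controls, whose markers also differed from the exenatide group: 4 of 8 interneuron markers rose (sums of 412 to 498 CPM against 322 to 436) and 6 of 14 pan-neuronal markers rose (7901 to 8780 against 7948 to 8626). The part of these markers in the result was not tested. In ST frontal cortex exenatide called none of 39 by edgeR (0.0274% of all genes), 5 were under an unadjusted p of 0.05, and DESeq2 called 1. The nearest was Gabra2, at 66.6, 73.3, 76, 81.3 and 97.4 CPM against 93.9, 95.3, 98.4, 104 and 108 (−0.34 ± 0.09, adjusted p = 0.103).

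**Figure D3:**
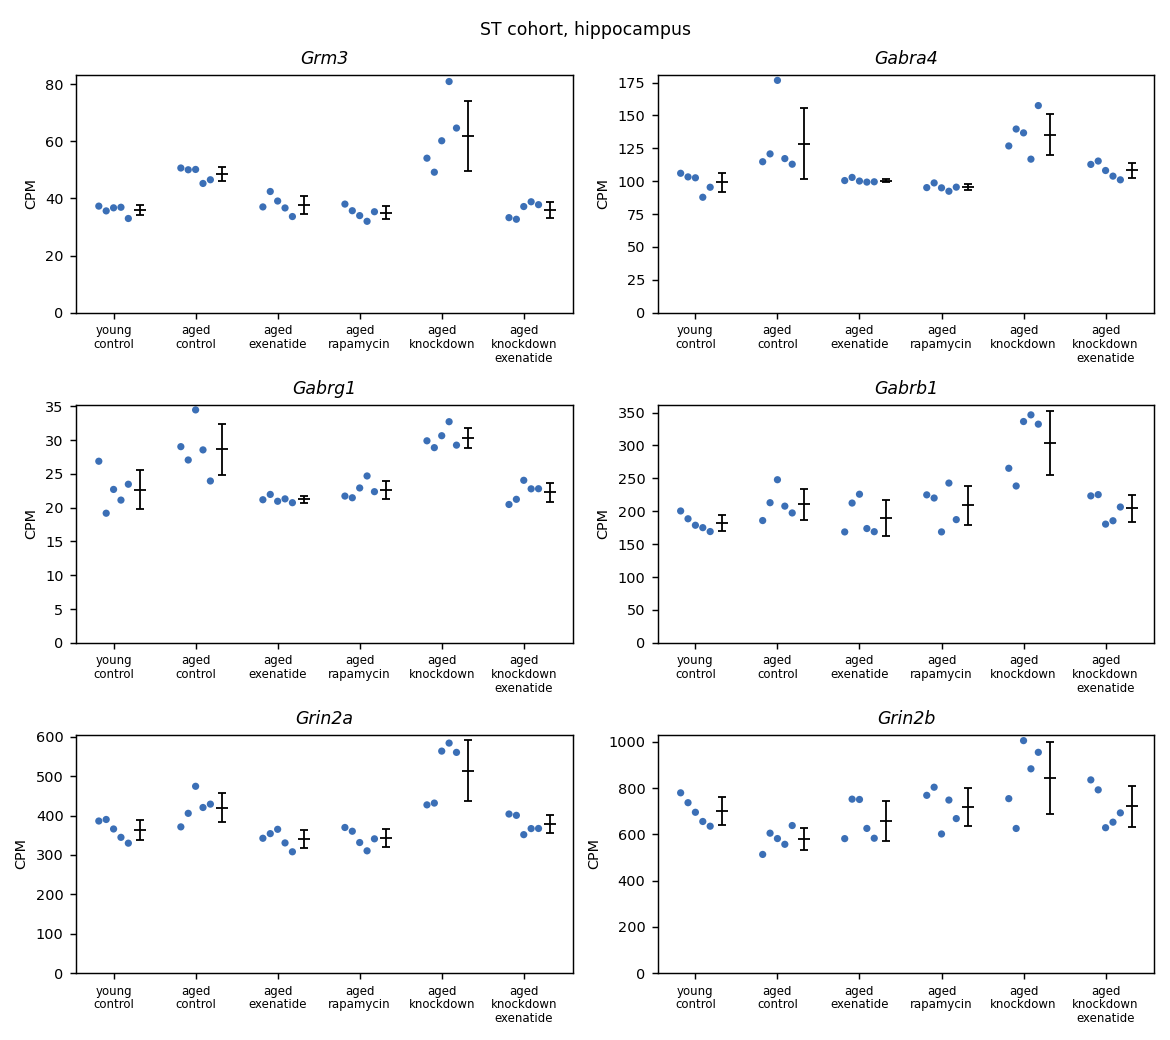
Grm3, Gabra4, Gabrg1, Gabrb1, Grin2a and Grin2b in the ST hippocampus, in CPM by group; points are animals (n = 5 per group) and bars are means with SD. Grm3 sits at 45.2 to 50.7 CPM in aged controls and at 33.7 to 42.4 with exenatide, 32 to 38 with rapamycin and 33 to 37.3 in young controls.

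Rapamycin was tested in aged ST mice only. In frontal cortex 10 of 39 members fell and 2 rose, against 10.4% and 7.81% of all genes; the members' median was −0.08. Grm3 stood at 63.5, 64.1, 68.8, 71.4 and 74.3 CPM on rapamycin, below all 5 aged controls at 85.9 to 114 (−0.57 ± 0.10, adjusted p = 0.000285). Grin2b, the NMDA subunit of slower, developmentally early channels, stood at 438, 458, 463, 477 and 478 against 601, 629.6, 719, 799 and 828 (−0.63 ± 0.13, adjusted p = 0.00129). Gabrb1 stood at 164, 165, 174, 177 and 183 against 229.9 to 319.7 (−0.67 ± 0.14, adjusted p = 0.00192). Gabra2 stood at 62.2, 68.7, 74.5, 78 and 78.6 against 93.9 to 108 (−0.47 ± 0.09). Each of these 4 was lower in every treated animal than in every aged control.

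The other 6 that fell in this cortex comparison were Gabra4, Gabrg3, Grin2a, Grik2, Grm5 and Grm7, by 0.25 to 0.41. Grin2d rose by 0.43 ± 0.11 (adjusted p = 0.00792), from 12.1 to 15.9 CPM to 16.5 to 21.7, and Grm2, a presynaptic receptor that restrains glutamate release, by 0.43 ± 0.12 (adjusted p = 0.0136). With length and GC trends removed 4 kept their calls, Grm3 (−0.54), Gabra2 (−0.23), Gabrb1 (−0.28) and Grm7 (−0.25), Grin2b stood at −0.12 and Grik2 at 0.04. Striatum markers moved as well: 5 of 9 fell, with sums of 770 to 1498 CPM on rapamycin and 1351 to 1733 in aged controls and none at 0. With their level as a covariate the count was 6, and Grm2, Grin2d, Grm5, Grm7, Grik2 and Gabra4 were no longer called.

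In the hippocampus rapamycin lowered 9 of 39 members and raised 1 (13.5% and 14.1% of all genes). Grm3 stood at 32, 34, 35.3, 35.7 and 38 CPM against 45.2 to 50.7 (−0.47 ± 0.09, adjusted p = 0.000132), and Gabra4 at 92.4, 94.9, 95.1, 95.5 and 98.7 against 113 to 177 (−0.43). The other 7 fell by 0.24 to 0.34, among them Gabra5 and Gabrg1 of the GABA-A family and Grin2a. Grin2b was the member that rose, at 602, 668, 748, 769 and 804 against 513, 557, 582, 605 and 638 (0.31 ± 0.11, adjusted p = 0.0305), so its call was opposite to that in cortex; the difference between regions was not tested. With length and GC trends removed Grm3, Gabra4, Gabra5, Grin2a and Grin2b were among those that kept their calls.

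Knockdown of the hypothalamic GLP-1 receptor was compared within aged ST controls. In frontal cortex 2 of 39 members fell and 1 rose (3.04% and 3.28% of all genes). Gabra2 stood at 68.8, 69.8, 70.4, 71.8 and 81.1 CPM with knockdown, below the 93.9 to 108 of aged controls (−0.47 ± 0.09, adjusted p = 0.0277), and Gabrg1 fell by 0.34 ± 0.10 with overlapping groups. Grin1 stood at 501, 524, 529, 533 and 536 against 419.8, 420.0, 434, 439 and 443, without overlap (0.28 ± 0.07, adjusted p = 0.0363). None of the 3 was called with length and GC trends removed, when they stood at −0.24, −0.07 and 0.08 for Gabra2, Gabrg1 and Grin1, and leaving out any of 6 animals (E13, E23, E30, E20, E35 or E8) brought the count to 0.

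In the hippocampus knockdown raised 4 of 39 members and lowered none (3.26% and 1.72% of all genes). Grin2b stood at 625.4, 754, 883, 955 and 1005 CPM against 513 to 638, with 1 knockdown animal inside the control range (0.55 ± 0.11, adjusted p = 0.00577). Gabrb1 stood at 238, 265, 332, 336 and 346 against 186, 197, 208, 213 and 248, with 1 animal of each group in the overlap (0.53 ± 0.11, adjusted p = 0.00652). Grm3 stood at 49.2, 54.1, 60.2, 64.7 and 80.9, mostly above the 45.2 to 50.7 of controls (0.35 ± 0.09, adjusted p = 0.0181), and Grin2a rose by 0.29 ± 0.08 (adjusted p = 0.0332). Gabrb1 and Grm3 kept their calls with length and GC trends removed. Fitting only these 2 groups kept Grin2b and Gabrb1, and leaving out E29 gave 10 calls, 9 higher and 1 lower.

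Exenatide was also given to knockdown mice, and this contrast uses none of the aged controls without knockdown. It does share the untreated knockdown mice with the knockdown contrast above. A rise with knockdown and a fall with exenatide in knockdown mice, as for Grm3, Gabrb1 and Grin2a, are therefore not separate observations. In the hippocampus 15 of 39 members fell and none rose, against 15.1% and 16.1% of all genes, with a median of −0.20 against −0.01. Grm3 stood at 32.7, 33.3, 37.2, 37.8 and 38.8 CPM, below the 49.2 to 80.9 of untreated knockdown mice (−0.78 ± 0.09, adjusted p = 5.78e-08). Gabra2 stood at 86.4, 90.5, 94.7, 98 and 99.7 against 119, 122, 131, 148 and 212 (−0.64 ± 0.11, adjusted p = 3.09e-05). Gabrb1 stood at 180.4, 186, 206, 223 and 225 against 238 to 346 (−0.57). All 3 were without overlap. Another 11 fell by 0.25 to 0.44, among them Gabra4, Gabrb2, Gabrg1, Gabrg3, Grin2a, Grin3a, Grik2 and Grm5, and the low-level glycine-binding NMDA subunit Grin3b by 1.15 ± 0.32 (0.244 to 0.507 CPM against 0.466 to 1.23). With length and GC trends removed Grm3 (−0.76), Gabra2 (−0.39), Gabrb1 (−0.24) and Grin3b (−1.25) were among those that kept their calls, Grik2 stood at 0.10, and the count over members was 8, of which 2 rose. In this contrast 4 of 8 interneuron markers rose and 1 fell, with sums of 415 to 531 CPM against 247 to 423; their part was not tested.

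Whether exenatide acted differently with knockdown was tested as an interaction and called no member in either region. In hippocampus 0.043% of all genes were called, 7 members were under an unadjusted p of 0.05, and Grm3 came nearest at −0.42 ± 0.12 (adjusted p = 0.155); DESeq2 called none. In frontal cortex 0.0% were called, 5 members were under an unadjusted p of 0.05 and Gabra2 came nearest at 0.43 ± 0.13 (adjusted p = 0.183); DESeq2 called none. In frontal cortex of knockdown mice exenatide called none of 39 (0.0% of all genes, 3 members under an unadjusted p of 0.05, none by DESeq2).

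**Figure D4:**
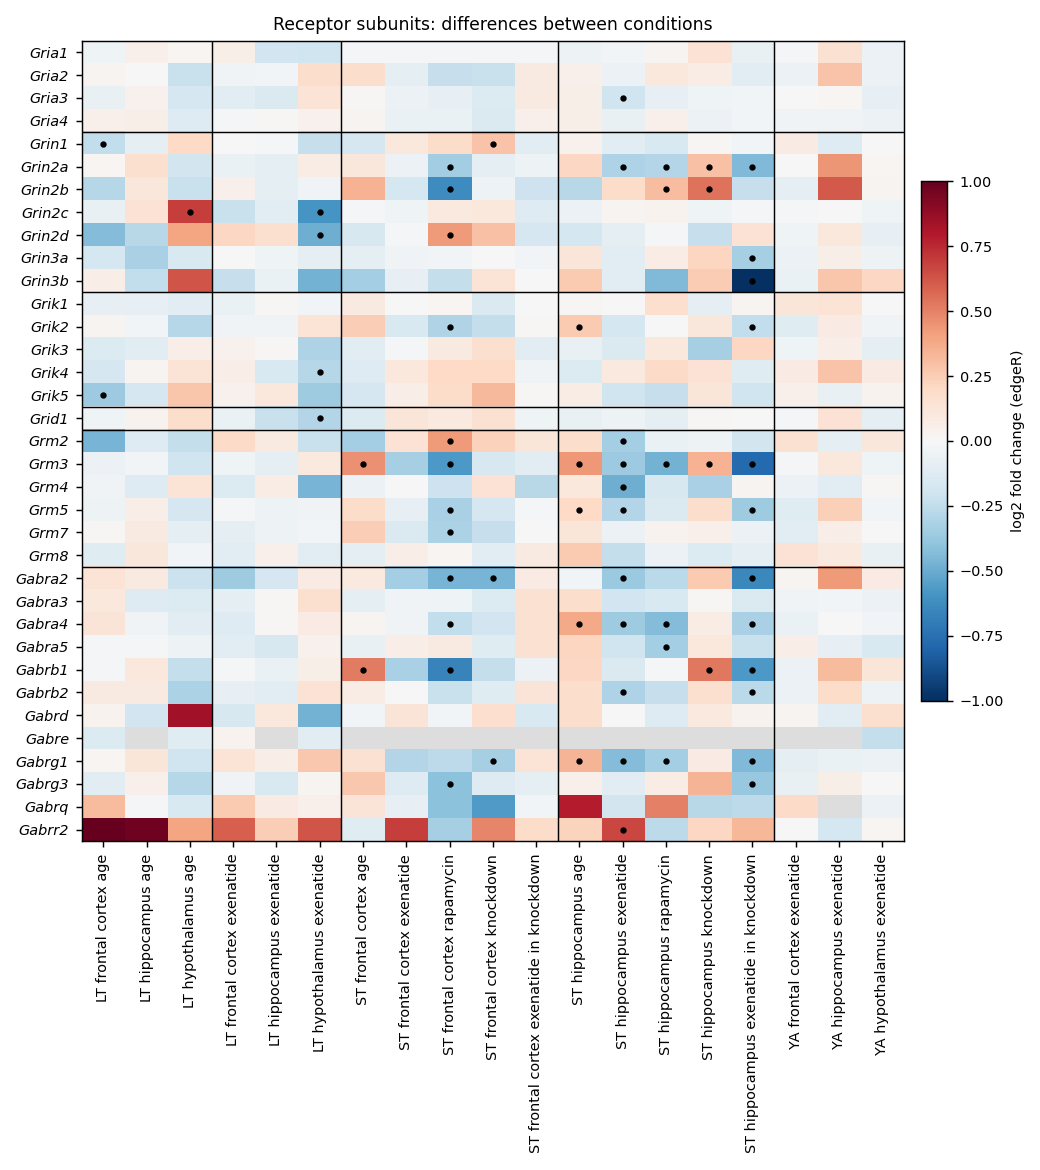
Log2 fold change of receptor subunits (rows) in each comparison between conditions (columns), coloured from −1 to 1 with larger values at the end colours; grey cells were not tested and dots mark adjusted p under 0.05. Dots gather in the ST hippocampus columns and in the column of rapamycin in ST frontal cortex, and none lies in the YA columns. Of all genes, up to 16.1% were called in 1 direction in an ST hippocampus column and 10.4% in that cortex column. In the YA columns 0.0% were called.

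In the YA cohort exenatide called no member in any region, by edgeR or DESeq2, and 0.0% of all genes in each. Of 39 members tested in frontal cortex 1 was under an unadjusted p of 0.05, of 38 in hippocampus none, and of 40 in hypothalamus 1. Grin2c in hypothalamus stood at 43, 52.8 and 61.9 CPM in controls and 47, 51.1 and 58.8 on exenatide (lowest, median, highest). Grm3 in hippocampus stood at 20.1, 27.8 and 51.3 against 20.4, 26.2 and 76.7, where the highest value of each group came from A87 and A88.

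The balance between partner subunits was followed as log2 ratios of counts within a library (0.5 added to each), 3 ratios and 57 tests in all by exact permutation within batches, adjusted together. Of these, 10 passed, each with an adjusted p of 0.0452. The 8 in ST had an exact permutation p of 0.00794, the smallest that 5 animals against 5 allow. All 10 adjusted values depend on how many tests reached it. Grin2a to Grin2b, the pair whose balance shifts from 2b towards 2a as forebrain synapses mature, gave 6 of the 10. In ST hippocampus it was higher by 0.48 in aged than in young controls (means of −0.46 and −0.95), lower by 0.48 on exenatide and by 0.60 on rapamycin than in aged controls. In ST frontal cortex it was lower by 0.23 with age and higher by 0.27 on rapamycin. Within each ST region these contrasts share the aged controls, so they are not separate observations. In LT frontal cortex the Grin2a to Grin2b ratio was higher by 0.30 with age (exact permutation p = 0.00159), opposite to ST cortex. Gria1 to Gria2 was lower by 0.36 on exenatide in LT hypothalamus (exact permutation p = 0.00204). All 10 kept their call with a pseudocount of 5 in place of 0.5. The ratios were not recomputed with length and GC trends removed.

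**Figure D5:**
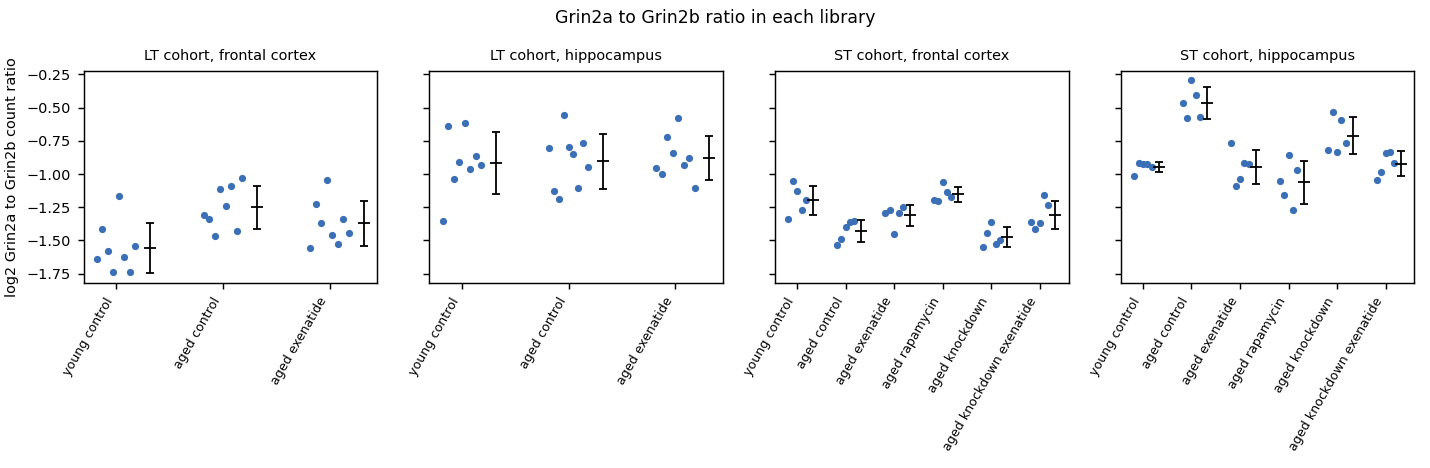
Log2 ratio of Grin2a to Grin2b counts by group in LT and ST frontal cortex and hippocampus; points are animals and bars are means with SD. In ST hippocampus aged controls average −0.46 and young controls −0.95, with groups apart.

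Over the 21 comparisons between conditions, 40 members were tested at least once and 29 were called at least once. The share of all genes called at least once was not computed. Single comparisons called up to 16.1% of all genes in 1 direction, so the 29 are not read as particular to the members. Grm3 was called in 7 (3 higher, 4 lower), and Gabra4, Gabrg1 and Grin2a in 5 each (1 higher, 4 lower); since most ST contrasts share the aged controls, these are not separate observations. The 11 tested and never called included Gria1, Gria2, Gria4, Grik1, Grik3, Grm8, Gabra3, Gabrd, Gabre and Gabrq. The delta and hypothalamic subunits Gabrd, Gabre and Gabrq, which differed widely between hypothalamus and cortex, are among them. Gabre, however, was too low to be tested between conditions in ST, in LT hippocampus and in YA frontal cortex and hippocampus. Gabrq was not tested in YA hippocampus. Another 5 never passed the filter on low counts: Grm6, Gabrr1, Gabrp, Gabra6 and Gabrr3, the first known from retina and the alpha6 subunit from cerebellar granule cells, with highest counts of 6, 14, 5, 6 and 7 in any brain library.

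Genes that work with these receptors were taken as fixed lists. Of 25 auxiliary subunits of AMPA and kainate channels, 8 fell and none rose with exenatide in ST hippocampus (14.4% and 14.2% of all genes), led by the kainate partner Neto2 (−0.56 ± 0.08), and 3 fell in LT hypothalamus (2.93% of all genes), among them the AMPA partner Cacng8 (−0.73 ± 0.20). Of 22 excitatory postsynaptic scaffolds 7 fell with exenatide in LT hypothalamus (against the same 2.93%), with Dlg4, the main scaffold of excitatory synapses, at −0.44 ± 0.08, after a rise of 0.29 with age. In ST hippocampus 3 scaffolds rose and 8 fell with age, Dlg4 among the latter (−0.32), where 11.9% of all genes rose and 14.1% fell, while 2 rose and 5 fell with exenatide, against 14.2% and 14.4%. Of 10 GABA-A receptor partners, none rose and 3 fell with age there (the same 11.9% and 14.1% of all genes), where 5 GABA-A subunits rose: Gabarapl1 (−0.43), Lhfpl4 (−0.45) and the synapse organiser Nlgn2 (−0.31). Gabarapl1, a trafficking and autophagy protein, rose by 0.45 on exenatide and 0.37 on rapamycin. Of the GABA-B receptor and its partners, 3 of 6 fell with exenatide in ST hippocampus (14.4% of all genes), Kctd12 by 0.35 and Gabbr2 by 0.27. Of 4 glycine receptor subunits tested, Glrb and Glra3 rose with age in ST hippocampus (0.30 and 0.57) and fell with exenatide (−0.36 and −0.52) and rapamycin (−0.34 and −0.40), in comparisons where 11.9% of all genes rose, 14.4% fell and 13.5% fell. Within a cohort and region the age, exenatide and rapamycin contrasts share the aged controls. Opposite directions of Dlg4, Gabarapl1, Glrb and Glra3 in them are therefore not separate observations. Results of the list genes under the alternative settings are not given here. Among 19 genes of transmitter synthesis and transport, the glutamine-forming enzyme Glul rose with age in LT frontal cortex (0.25), with 1 other gene of the list, and hypothalamus (0.48), as the only one (2.94% and 3.12% of all genes rose).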

How the data were processed

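Poly(A) libraries (NEBNext Ultra II, a kit that does not mark strand) came from tissue kept in RNAlater, per the labels' protocols. The build was GRCm39 and FastQC 0.11.9 was used, per the submitters' processing notes. The aligner and counter are not named there. The authors deposited raw whole-number counts per gene for LT. For ST and YA the authors deposited expected counts (estimated counts), of which 7.48% and 7.24% of non-zero brain values were not whole and all were rounded here. The tables also hold 438 columns of other tissues, not used here.

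edgeR 4.0.16 (R 4.3.3, limma 3.58.1) normalized by TMM, filtered with filterByExpr and ran the quasi-likelihood F test in each cohort and region, all conditions sharing a dispersion, with batch as a term in LT; p-values were adjusted by Benjamini-Hochberg over all genes tested. Regions were compared with the animal as a block, since the labels name the same animal for each region. Values in CPM were computed from the counts; exon lengths and GC contents came from an annotation of GRCm38 matched by symbol, for 100% of the members tested. The length and GC alternative removes from each library a smooth trend of log expression on both. It was run on the comparisons between conditions only. The main edgeR fit and test were run on simulated counts with known changes, for some of the condition and region fits. DESeq2, the length and GC alternative, the marker terms and the age by region model were not. Alternatives were DESeq2 1.42.0, other size factors, no filter, only the groups compared, single batches, each animal left out, thinning, and marker or length and GC terms; the last 2 kinds and thinning were chosen after seeing the data. Some members enter every count but are not reported by name here. The members and lists were chosen with earlier results of these data known.

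Named between conditions were up to 12 members called per comparison in order of adjusted p, or the 1 with the smallest where none was called; between regions, up to 8 per direction; from each list, up to 3. Some values shown beside them were chosen after seeing the data. Animals are the replicates, so p-values measure the spread between animals. Precision from counting is poorest for members at a few counts.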

Additional observations from a re-analysis of the deposited data

Results flagged for a closer look

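Of 106 groups of 4 to 10 animals checked for a value standing apart, 5 held one, where chance alone flags about 1 in 20. In ST frontal cortex, knockdown animal E21 stood at 81.1 CPM for Gabra2 (the other 4 at 68.8 to 71.8) and 43.5 CPM for Gabrg1 (37.01 to 38.5), and rapamycin animal E36 at 155.6 CPM for Gabra4 (132 to 137). In ST hippocampus, aged control E29 stood at 177 CPM for Gabra4 (113 to 121), and exenatide animal E31 at 13.04 CPM for Grm4 (10.3 to 10.8).

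The age difference in the LT cohort differed between hypothalamus and frontal cortex by the interaction test for these members, on the log2 scale: Grin2d 0.93, Grin2c 0.78, Grik5 0.72, Grin1 0.50 and Grid1 0.24. Over all genes this test called 4.24% more positive and 5.36% more negative. Its count of members ran from 2 to 11 when 1 animal was left out.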

How the results depend on the processing

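Of the 77 differences between conditions called, 31 remained past the threshold with length and GC trends removed, 43 did not, and 3 turned: Grik2 with rapamycin in ST frontal cortex (0.0395), Gria3 with exenatide in ST hippocampus (0.0135) and Grik2 with exenatide in knockdown hippocampus (0.0969). The cause was not tested. Depth limits members at a few CPM, such as Gabrr2 and Grin3b.

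Counts of called members moved as follows. With length and GC trends removed they were 1 for LT cortex age, exenatide and for hypothalamus age and exenatide, 4 for ST cortex age, 0 for ST cortex knockdown, 5 for ST hippocampus age and 8 for exenatide in knockdown there. DESeq2 gave 4 for LT cortex age, 9 for LT hypothalamus exenatide and 1 for ST cortex exenatide. Fitting only the groups compared gave 5 for LT cortex age, 10 for LT hypothalamus exenatide, 5 for ST cortex age, 14 for ST cortex knockdown and 2 for ST hippocampus knockdown. With no filter the counts were 1 and 2 for LT hypothalamus age and exenatide and 1 for ST cortex age. With no batch term they were 1, 1 and 0 for LT cortex age, hypothalamus age and hypothalamus exenatide. Batch 1 alone gave 7 for LT cortex exenatide and 1 for hypothalamus age; batch 3 alone gave 5 for cortex exenatide and 0 for LT cortex age, hypothalamus age and hypothalamus exenatide. The choroid plexus covariate gave 1, 1 and 4 for LT hypothalamus age and exenatide and ST hippocampus age, the striatum covariate 6 for ST cortex rapamycin. No region by batch term gave 1 for the LT age difference, hypothalamus minus hippocampus. Region contrasts were fitted with the animal as a block. With no replicate block all 112 named region results kept their calls, and the counts were 24, 29 and 33 in LT, 27 in ST and 36, 33 and 38 in YA. Length and GC trends were not removed in the region contrasts, so how far these calls depend on them was not tested.

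Leaving out 1 animal at a time gave 2 to 11 members for the LT age difference of hypothalamus minus cortex (10 without A54, 11 without A58, 2 without A51 or A55, 3 without B16, B19, B24, B27, B34, A52, A53, A56 or A57) and 0 to 13 for hypothalamus minus hippocampus (13 without A58, 2 without B34, 1 without B39 or A54). It gave 1 to 3 for LT cortex age; 1 to 10 for LT hypothalamus age (10 without A54, 8 without A58, 1 without B15, B16, B19, B24, B27, B34, B39, A51, A52, A55, A56 or A57); and 1 to 6 for LT hypothalamus exenatide (1 without B14, B25, B26, B40, B15, B16, B24, B27, B34 or B39, 2 without B30). It gave 1 to 2 for ST cortex age (1 without E13, E23, A43 or A45), 0 to 3 for ST cortex exenatide (3 without E31) and 0 to 3 for cortex knockdown. In ST hippocampus it gave 4 to 10 for age, 0 to 1 for the exenatide by knockdown difference (1 without E21) and 3 to 10 for knockdown. Rapamycin gave 8 to 15 in cortex and 7 to 10 in hippocampus, exenatide in hippocampus 11 to 15, and 12 to 16 with knockdown.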
